A study of Mus musculus with 7 samples.

Results

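The genes for 10 ETS transcription factors of blood progenitors, Erg, Fli1, Spi1, Etv6, Elf1, Elf2, Elf4, Ets2, Gabpa and Elk3, were examined for occupancy by GATA2 and by 9aa-Ins, a GATA2 variant with extra amino acids between the zinc fingers. The 10 were taken as a list of names, among 21938 protein-coding genes of the annotation (GENCODE M21 on mm10, which is GRCm38). A peak was linked to a gene when its summit lay inside the gene or within 100 kb of the gene start. By this rule 24 of 6254 GATA2 peaks and 1 of 1079 9aa-Ins peaks were linked, and no peak was linked to more than 1 of the 10 genes.

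The cells were hi-77-/- mouse fetal liver progenitors, immortalized with Hoxb8 and grown with β-estradiol, which lack an enhancer upstream of Gata2 and keep a lowered level of their own GATA2. They were infected with a GFP retrovirus that expressed GATA2 or 9aa-Ins, each with an HA tag, and GFP+ cells were sorted after 3 days. In CUT&Tag, an antibody directs a transposase to cut and tag DNA around the bound protein. The HA antibody is directed at the introduced protein and not at the endogenous one. None of the 7 samples was a control with a nonspecific antibody or with cells lacking the tagged protein. Reads unrelated to that protein could therefore not be told apart. Each construct had 2 anti-HA libraries from 1 pool of sorted cells, merged into 1 peak list, so no value below has a replicate error, and no difference between GATA2 and 9aa-Ins could be tested against one. Height is given as pileup, which counts the reads that cover a summit. The lowest pileup of a peak was 9 reads in both lists, over a background of 0.464 reads with GATA2 and 0.455 reads with 9aa-Ins.

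ETS factors share a DNA-binding domain that contacts a GGAA core, and GATA factors bind WGATAR, where W is A or T and R is A or G. In blood stem and progenitor cells GATA2 is known to occupy many enhancers together with ERG and FLI1, while PU.1, the product of Spi1, can oppose or assist GATA factors. Whether GATA2 occupies the genes of its ETS partners, and whether 9aa-Ins does so, is the question the 2 lists can address.

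GATA2 peaks lay at 9 of the 10 genes, compared with 52.5% of all protein-coding genes, and a 9aa-Ins peak at 1, compared with 18.6%. Erg carried the highest peak by far, 45 reads deep in an intron of the gene, with WGATAR next to the summit and no 9aa-Ins peak. Fli1 held the only site found with both proteins, and this site had no WGATAR. At Spi1, Ets2, Gabpa and Elk3 every GATA2 peak had 12 reads or fewer, close to the lowest height in the list. Elf4 had no peak of either protein. At a stricter q-value of 1e-10, 7 of the 10 genes kept a GATA2 peak, compared with 48% of all protein-coding genes. For Spi1 and Elf1, the peaks kept lay only at promoters of neighbouring genes. At this threshold 0 of the 10 genes kept a 9aa-Ins peak, compared with 14.2%.

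The sequences around the summits are shown first for the linked peaks with WGATAR, 1 per gene, since these carry the letters that GATA2 binds. Each is the mm10 plus strand centred on the summit, with 50 bases to each side, with WGATAR, or its reverse complement, in capitals. For Fli1 and Elk3 the window reaches 100 bases to each side, because the match lay farther than 50 bp from the summit.
Erg, chr16:95439344-95439444: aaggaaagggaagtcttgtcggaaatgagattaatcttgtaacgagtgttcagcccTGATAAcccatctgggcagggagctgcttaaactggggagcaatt
Fli1, chr9:32556407-32556607: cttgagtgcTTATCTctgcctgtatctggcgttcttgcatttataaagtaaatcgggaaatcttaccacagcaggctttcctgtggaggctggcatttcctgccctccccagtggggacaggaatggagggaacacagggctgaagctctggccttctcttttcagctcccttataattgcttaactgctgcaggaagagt
Elf1, chr14:79521715-79521815: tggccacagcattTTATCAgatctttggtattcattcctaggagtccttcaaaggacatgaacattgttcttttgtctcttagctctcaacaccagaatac
Elk3, chr10:93285228-93285428: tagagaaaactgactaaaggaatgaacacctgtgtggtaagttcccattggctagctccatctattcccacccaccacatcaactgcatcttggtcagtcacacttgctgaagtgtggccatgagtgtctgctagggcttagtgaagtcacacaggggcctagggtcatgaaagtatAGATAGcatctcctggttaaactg

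A further set has no WGATAR within 100 bp of the summit, and shows the site common to both proteins (Fli1) and peaks within or before 4 other genes. Here the capitals mark the ETS core GGAA on either strand, and the window of Elf2 has none. The Spi1 window was chosen after its values were seen.
Fli1, chr9:32539322-32539422: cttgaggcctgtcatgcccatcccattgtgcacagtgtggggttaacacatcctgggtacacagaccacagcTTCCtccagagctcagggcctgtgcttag
Spi1, chr2:91083134-91083234: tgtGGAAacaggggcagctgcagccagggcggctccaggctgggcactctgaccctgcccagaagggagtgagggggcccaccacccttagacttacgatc
Etv6, chr6:134186580-134186680: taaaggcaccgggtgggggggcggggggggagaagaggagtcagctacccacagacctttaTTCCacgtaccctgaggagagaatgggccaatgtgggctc
Elf2, chr3:51340837-51340937: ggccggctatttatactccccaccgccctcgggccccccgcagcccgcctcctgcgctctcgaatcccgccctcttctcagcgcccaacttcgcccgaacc
Ets2, chr16:95701887-95701987: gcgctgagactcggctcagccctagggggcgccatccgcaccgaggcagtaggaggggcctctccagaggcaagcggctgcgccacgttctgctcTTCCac

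**Figure D1:**
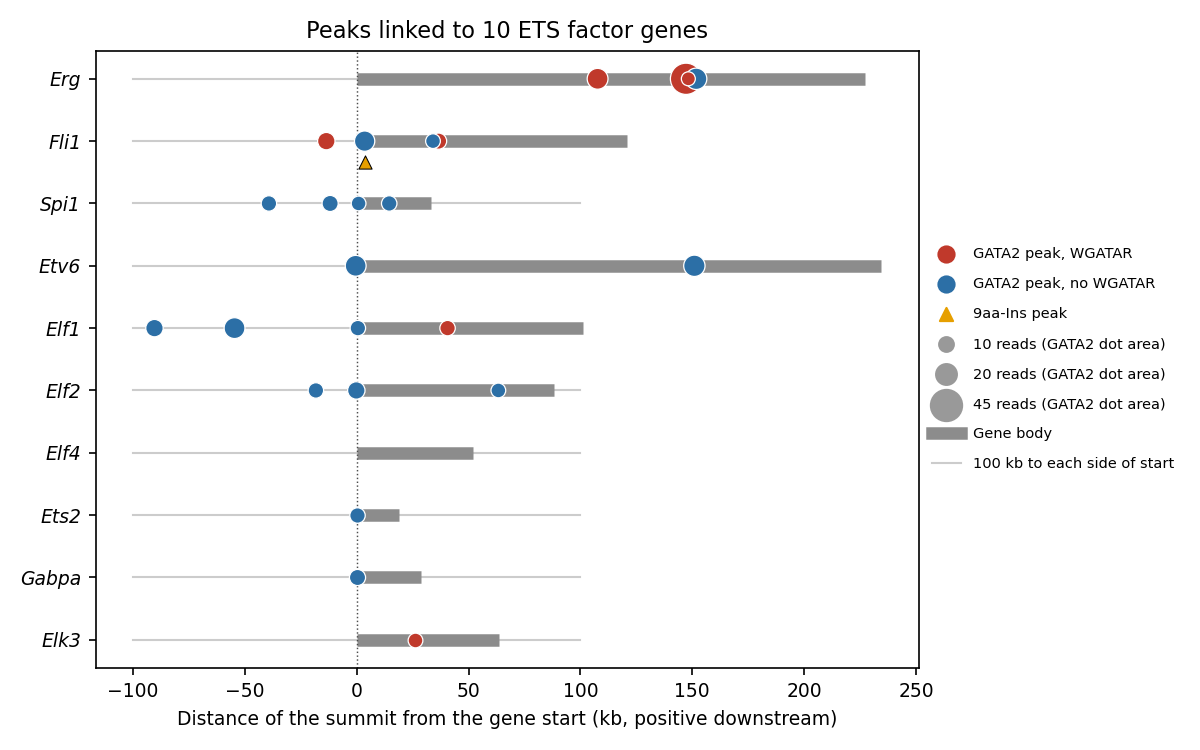
Position of the linked peaks along the 10 genes. The x axis is the distance of the summit from the gene start in kb, positive in the direction of transcription, dots are GATA2 peaks with an area proportional to pileup, and triangles are 9aa-Ins peaks. The 45-read peak of Erg stands 147 kb inside the gene with a 9-read peak drawn over it, and the only triangle is at Fli1.

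Erg (ENSMUSG00000040732.20, chromosome 16, 95359169 to 95586593, minus strand) encodes a factor needed to maintain blood stem cells. It had 4 GATA2 peaks with pileups of 21, 9, 45 and 20 reads, all in introns and none within 100 kb of the gene start, so that they were linked only because they lie inside this gene of 227 kb. Of the 4, 3 fell within 5.79 kb of one another. The highest spanned 95438929 to 95440146, a width of 1218 bp, with a fold enrichment of 31.4. Its pileup of 45 reads (exact Poisson 95% interval 32.8 to 60.2) stood at the 98.4 percentile of the GATA2 list.

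This Erg peak carried TGATAA beginning 6 bp from the summit, and an E-box (CANNTG, the motif of the TAL1 and LYL1 group of factors) followed 2 bases after it, as the first printed sequence shows. The window also held 3 GGAA cores. The 9-read peak lay 444 bp away at 95438309 to 95438484 and had TGATAA at -72 bp from its summit, counted along the plus strand. The third of this group, at 95434359 to 95434989 with 21 reads (interval 13.0 to 32.1), had no WGATAR.

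All 8 protein-coding transcripts of Erg ran across these 3 peaks. The nearest transcript start was 19.9 kb upstream of the highest peak, although the gene start was 147 kb upstream. The fourth peak, at 95478701 to 95479129 with 20 reads, had TGATAA at -52 bp and lay 19.6 kb upstream of the same group of starts. No 9aa-Ins peak lay nearer to the Erg start than 1216 kb.

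Fli1 (ENSMUSG00000016087.13, chromosome 9, 32422204 to 32542861, minus strand), the closest relative of Erg and a regulator of stem cells and megakaryocytes, also had 4 GATA2 peaks, with 12, 10, 19 and 14 reads. The intronic peaks at 32506039 to 32506337 (12 reads) and 32508674 to 32508887 (10 reads) were 2.34 kb apart, 36.6 and 34.1 kb downstream of the gene start. Only the first of this pair had WGATAR, as AGATAA on the minus strand. The intergenic peak at 32556268 to 32556551, with 14 reads (interval 7.65 to 23.5), was 13.6 kb upstream of Fli1 and had AGATAA at -91 bp from its summit, near the edge of the window searched.

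The remaining Fli1 peak was the site found with both proteins, in the first intron. The GATA2 peak, 32539309 to 32539599, had 19 reads (interval 11.4 to 29.7) and the 9aa-Ins peak, 32539360 to 32539556, had 11 reads (interval 5.49 to 19.7). Their summits were 8 bp apart, and all 197 bp of the 9aa-Ins peak fell within the GATA2 peak. Pileup over background was 1.69 times as high with GATA2, with an exact binomial interval of 0.766 to 3.94 that covers counting error only and includes 1. The summit lay 3.49 kb downstream of the gene start and 2.22 kb downstream of the nearest transcript start, outside the promoter, which was taken as 2 kb upstream to 100 bp downstream of a protein-coding transcript start.

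Spi1 (ENSMUSG00000002111.8, chromosome 2, 91082390 to 91115756, plus strand) encodes PU.1, which directs myeloid and B-lineage development. It had 4 GATA2 peaks with 11, 12, 10 and 11 reads, all without WGATAR and all within 3 reads of the lowest peak in the list. Spi1 has 3 annotated protein-coding transcript starts, and the first lies well upstream of the others. The peak at 91082992 to 91083315 (10 reads) lay 794 bp downstream of the first start but 12.9 kb upstream of the second. The peak at 91096715 to 91096996 (11 reads) lay 782 bp downstream of the second start and 98 bp downstream of the third. A regulatory element upstream of Spi1 was deleted elsewhere in the study, and whether the 10-read peak lies in it was not tested.

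The other Spi1 peaks belonged by position to neighbouring genes. The one at 91070216 to 91070498 (12 reads) was 40 bp from the start of Slc39a13, a zinc transporter gene, and the one at 91042843 to 91043127 (11 reads) was in an intron, nearest to Rapsn at 7.46 kb.

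Etv6 (ENSMUSG00000030199.16, chromosome 6, 134035700 to 134270158, plus strand) encodes a transcriptional repressor of the family that stem cells of the bone marrow require. Its 2 GATA2 peaks had 20 and 21 reads, above the median of 15 reads for the whole list. One lay at the promoter, at 134034940 to 134035401, 504 bp before the start. The other lay in an intron 150930 bp downstream, at 134186442 to 134187226, and was 785 bp wide. Neither had WGATAR within 100 bp of the summit.

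Elf1, Elf2 and Elf4 encode related factors that activate genes of lymphoid and myeloid cells. Elf1 (ENSMUSG00000036461.16, chromosome 14, 79481194 to 79582494, plus strand) was linked to 4 GATA2 peaks with 14, 20, 11 and 11 reads, and 0 of them had the Elf1 start as the nearest one. Those at 79390460 to 79390952 (14 reads) and 79426425 to 79426671 (20 reads) lay 60 bp from the start of Naa16 and 7 bp from that of Kbtbd7. The peak at 79481486 to 79481803 (11 reads) was 462 bp inside Elf1 and 136 bp from the start of Wbp4. Only the intronic peak at 79521701 to 79521942 (11 reads), 40.6 kb inside Elf1, had WGATAR, as TGATAA.

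Elf2 (ENSMUSG00000037174.18, chromosome 3, 51252720 to 51340663, minus strand) had 3 GATA2 peaks with 10, 14 and 11 reads and no WGATAR. That at 51340630 to 51341104 (14 reads) was at the promoter, 224 bp upstream of the gene start. That at 51277156 to 51277387 (10 reads) was 63.3 kb inside the gene and 13 bp from the start of a shorter transcript, 1 of several starts clustered there. No linked peak lay at a further Elf2 start 14.7 kb inside the gene. The last, at 51358848 to 51359193 (11 reads), was intergenic and 18.3 kb upstream.

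Elf4 (ENSMUSG00000031103.12, chromosome X, 48411046 to 48463132, minus strand) had no peak in either list under the rule. The nearest GATA2 peak, with 14 reads, was 309 kb from its start. A site under the calling limit would not be listed, so that weaker occupancy was not detectable at this depth.

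Ets2, Gabpa and Elk3 had 1 GATA2 peak each. Ets2 (ENSMUSG00000022895.16, chromosome 16, 95702075 to 95721051, plus strand), a target of RAS and MAP kinase signaling, had a promoter peak at 95701909 to 95702168 with 11 reads, 138 bp upstream of the start. Gabpa (ENSMUSG00000008976.16, chromosome 16, 84834925 to 84863779, plus strand) encodes the DNA-binding subunit of GABP, a regulator of mitochondrial and housekeeping genes. Its peak at 84835112 to 84835345 had 12 reads and sat 7 bp from a transcript start, in a promoter that also serves Atp5j. It was the only one of the 24 with the extended ETS motif CCGGAA, compared with 12.2% of all GATA2 peaks. Elk3 (ENSMUSG00000008398.15, chromosome 10, 93247414 to 93311135, minus strand), a partner of serum response factor that often represses, had a peak of 10 reads at 93285217 to 93285403. This peak lay 25.8 kb inside the gene, 353 bp upstream of an internal transcript start, with AGATAG beginning 77 bp from the summit.

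**Figure D2:**
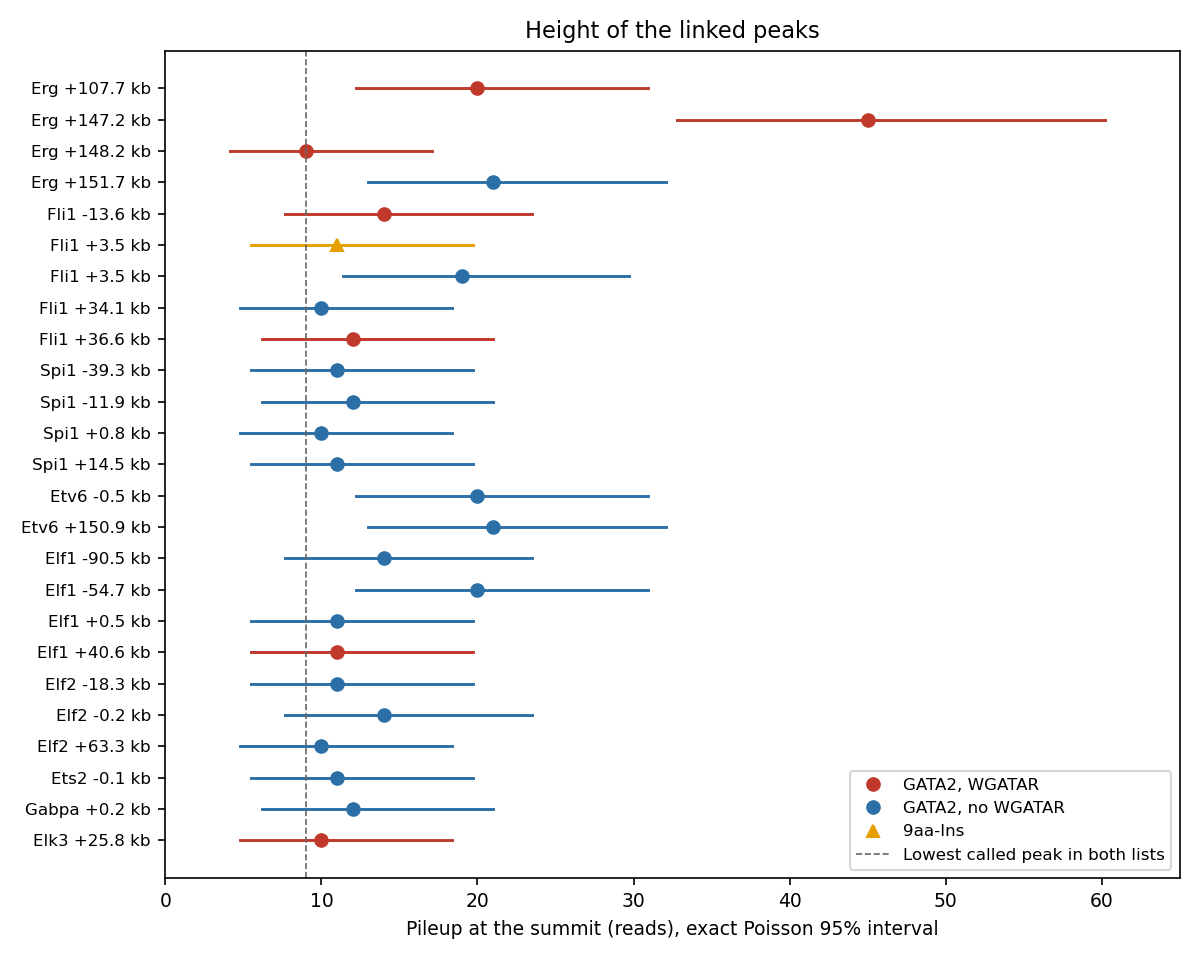
Pileup at the summit of each of the 24 GATA2 peaks and the 9aa-Ins peak, in reads, labelled by gene and by distance from the gene start, with bars for exact Poisson 95% intervals. The Erg peak at 45 reads stands clear of all others, and most bars cross the dashed line at 9 reads, the lowest called peak in both lists.

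The number and position of peaks at the 10 genes were then read against all protein-coding genes. Of the 10, 4 (Erg, Fli1, Spi1 and Elf1) had 4 or more GATA2 peaks, as did 11.6% of all genes. A GATA2 peak within 10 kb of the start was found at 7, compared with 21.7% of all genes. At 8, the gene start was the nearest one to some GATA2 peak, which held for 20.9% of all genes. These genes are 19.0 to 234 kb long, and a long gene offers the rule more sequence. Per megabase the windows of the 10 genes held 10.9 GATA2 peaks, and the windows of all protein-coding genes held 3.39. Because the genes were chosen with results of these data known, these shares are a description and were not tested.

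Although peaks were frequent at these genes, most of them were low. The 24 peaks had a median of 12 reads (quartiles 11 and 19.2), compared with a median of 15 reads (quartiles 12 and 20) over the list. Of the 24, 14 (58.3%, Wilson 95% interval 38.8 to 75.5) had 9 to 12 reads, a range chosen after the values were seen, and 27.7% of all GATA2 peaks did. The upper part was closer, as 6 of the 24 and 1601 of all 6254 GATA2 peaks had 20 or more reads. That limit too was chosen after the values were seen. The lower bound of the Poisson interval was above 9 reads for 7 of the 24 and for 45.6% of the list. These 7 were 3 peaks of Erg, both peaks of Etv6, the site of Fli1 found with both proteins and the peak at Kbtbd7.

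**Figure D3:**
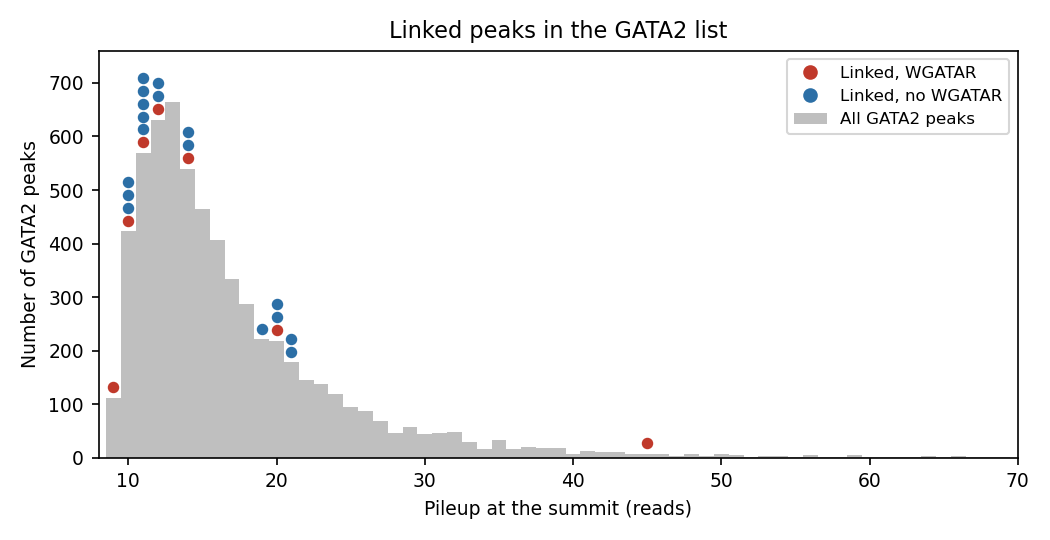
Number of GATA2 peaks at each pileup in reads (grey bars, with the highest peaks, up to 166 reads, beyond the end of the axis), with the 24 linked peaks as dots stacked above the bar of their pileup. Most dots stand above the bars at 10 to 12 reads, left of the list's median of 15 reads.

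Of the 24 peaks, 11 lay at promoters (45.8%, Wilson interval 27.9 to 64.9), 11 in introns and 2 between genes, whereas promoters held 50.4% and introns 24.1% of all GATA2 peaks. Only 7 of the 11 promoter peaks were at a promoter of the linked gene itself, and the other 4 were at promoters of neighbours. These 7 belonged to 6 genes, Spi1, Etv6, Elf2 with a pair of peaks, Ets2, Gabpa and Elk3, compared with 15.5% of all protein-coding genes that had such a peak at their own promoter. Neither Erg nor Fli1 had a promoter peak, and all of their 8 peaks were intronic or intergenic.

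Of the 24 peaks, 7 had WGATAR no farther than 100 bp from the summit (29.2%, Wilson interval 14.9 to 49.2), compared with 30.3% of all GATA2 peaks. The share depended on the search, at 12.5% of linked and 18.3% of all GATA2 peaks within 50 bp of the summit, and 50% and 48.2% for GATA alone within 100 bp. Flanking windows of equal length, 2 kb away on either side, had it in 37.5% of cases (18 of 48, Wilson interval 25.2 to 51.6). Over the whole list the share in flanking windows was 29.9%, close to the 30.3% at its summits. The motif was uneven among genes. Erg had 3 of these 7 peaks, Fli1 2, and Elf1 and Elk3 1 each. Outside promoters, 6 of 13 linked peaks had WGATAR (46.2%), compared with 47.0% of all GATA2 peaks there. At promoters it was 1 of 11 (9.09%), compared with 13.9%. Of the 7 matches, 4 read TGATAA, 2 AGATAA and 1 AGATAG. Over all GATA2 peaks TGATAA made up 22.6% and AGATAA 40.8% of the matches, and no test was made on so few.

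The sequences around the peaks also differed in base composition. Mean GC content was 47.0% in the 7 windows with WGATAR and 62.9% in the 17 without it. Position moved with the motif, as 6 of these 7 peaks but only 7 of the 17 lay outside promoters, and mean GC content was 65.2% at the linked promoter peaks and 52.4% at the others. The ETS core GGAA was found in 23 of the 24 windows (95.8%) and in 88.2% of all GATA2 windows. An E-box was found in 11 of 24 (45.8%), compared with 53.9% of the list. The composite of an E-box and WGATAR at a spacing of 6 to 14 bases, an arrangement known from GATA and TAL1 sites, was found in 0 of 24 and in 3.01% of the list.

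The insertion mutant was next compared with GATA2 at these genes. Of the 24 GATA2 peaks, 23 had no overlapping 9aa-Ins peak, and 1 (4.17%, Wilson interval 0.739 to 20.2) did, compared with 15.3% of all GATA2 peaks. None of the 7 peaks with WGATAR was shared (0%, Wilson upper limit 35.4%), compared with 6.81% of all GATA2 peaks with the motif. Among peaks of 20 or more reads, 0 of 6 linked peaks were shared (Wilson upper limit 39%), and 36.4% of all GATA2 peaks of that height were, a share within that limit. The 45-read Erg peak was among 103 GATA2 peaks at least that high, of which 60.2% (Wilson interval 50.5 to 69.1) overlapped a 9aa-Ins peak. Of the 45 such peaks outside promoters with WGATAR, 24.4% (Wilson interval 14.2 to 38.7) did. These height limits were chosen after the values were seen. For the 14 peaks of 9 to 12 reads the comparison says little, since only 3.00% of GATA2 peaks in that range were shared.

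The rest of the ETS family was described by the same rule. The study also found Etv3, Etv4, Etv5, Elk1 and Elk4 expressed in these progenitors. Of these 5, 3 had GATA2 peaks and 0 had a 9aa-Ins peak. Elk4, a partner of serum response factor like Elk3, had 7 linked GATA2 peaks with 11 to 36 reads, and 3 of them had WGATAR, as at Erg. Only 3 of the 7 had Elk4 as the nearest start, whereas all 4 peaks of Erg and all 4 of Fli1 were nearest to their own gene. Of the other 4 Elk4 peaks, 3 were nearest to Slc45a3 and the 36-read peak was nearest to Mfsd4a. The Elk4 peak of 25 reads at 131942753 to 131943255 of chromosome 1 had 5 WGATAR matches within 100 bp of its summit, and lay 20.1 kb from the start of Slc45a3. Etv5 had a promoter peak of 19 reads, 26 bp from its start. Etv3 and Elk1 had none.

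Of the 11 remaining ETS genes, 5 had GATA2 peaks, at 13 to 35 reads, and 4 had a 9aa-Ins peak (Ets1, Erf, Etv2 and Spdef). None of the 11 had the nearest start to any of these peaks. For Ets1, the neighbour of Fli1, the linked peaks were the shared site and the 14-read peak of Fli1, 96.8 and 79.7 kb from the Ets1 start. The 9aa-Ins peak near Erf was at the promoter of Cic, and that near Etv2 at the promoter of Kmt2b. Fev, Etv1, Elf3, Elf5, Ehf and Spic, which are mainly known from other tissues or other blood lineages, had no linked peak.

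**Figure D4:**
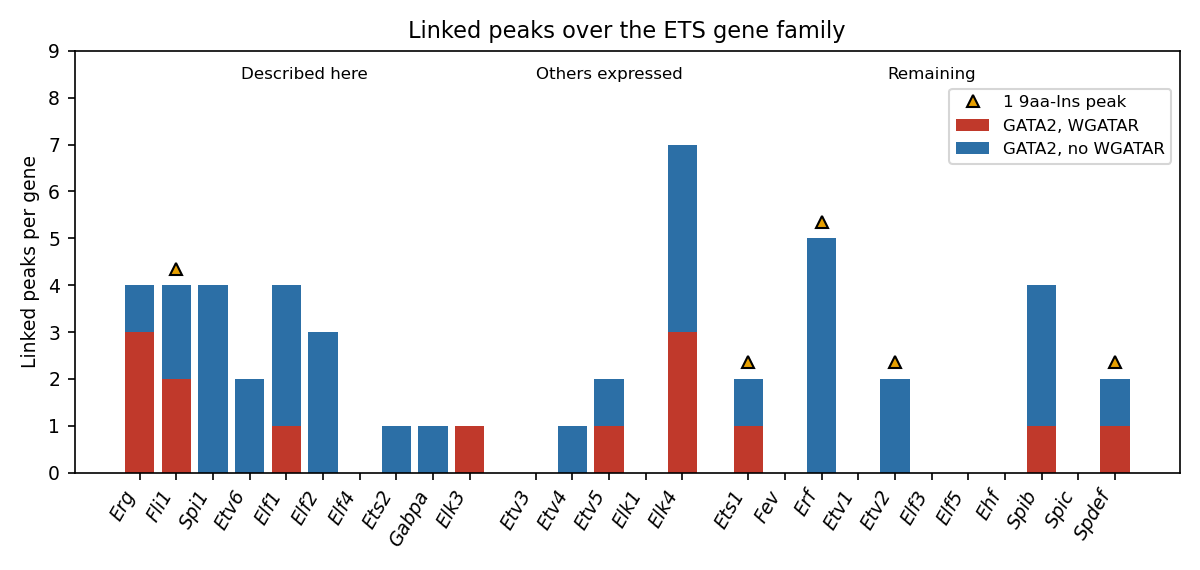
Number of linked GATA2 peaks per gene over 26 ETS genes, stacked by presence of WGATAR within 100 bp of the summit, with a triangle over genes that had a 9aa-Ins peak. Among the 10 genes at the left only Fli1 has a triangle, and Elk4, with 7 peaks of which 3 are nearest to its own start, has the tallest bar.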

How the data were processed

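Per the labels and the methods of the study, the authors used Bowtie2 to align CUT&Tag reads to mm10, took out duplicate and blacklisted reads, and ran MACS3 at a q-value of 1e-06. Tool versions were not given in the sources used here. The methods describe merging the peaks of both anti-HA replicates, but each deposited list, named as merged, had a single background, as 1 call on pooled reads gives. The deposited fold enrichment is a ratio of the pileup plus 1 to the background plus 1, and the −log10 values of p and q came from the authors' caller. The deposited summit offset located each summit.

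Whole pileups were recovered from the steps of the fold enrichment for 100% of peaks, within 0.01 of a whole step. The resulting −log10 p-values differed from the deposited ones by at most 0.000532. Depth was judged from the background, as read totals were not used here. Shared peaks overlapped by at least 1 bp. Promoters and gene bounds came from the comprehensive GENCODE M21 set. Motifs were searched on both strands of GRCm38.p6, within 100 bp of the summit. Intervals were exact Poisson, exact binomial or Wilson at 95%, and cover counting error only. The scripts were tested on simulated data (Python 3.11.15, scipy 1.17.1, pysam 0.24.0).

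The 10 genes, the other ETS lists and the motifs were chosen with earlier results of these data known. All 10 genes and every linked peak are named. Sequences were printed for the highest linked peak of each gene, with WGATAR where one had it, and for shared sites. In 3 windows an untranslated region fell inside, and these were not printed. For Spi1 a lower peak of 10 reads, chosen after its values were seen, was printed in place of the highest. The 3 anti-GATA2 samples were left out, and 0 columns of other samples were used. No test over replicates was possible between the constructs, and none was made on the gene list. The interval of the Fli1 ratio compares the reads of the merged lists, not the conditions.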

Additional observations from a re-analysis of the deposited data

How the results depend on the processing

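No paired analysis was possible because the replicates of a construct were deposited as 1 merged list, and leaving out a replicate was not run for the same reason. Of 73 alternative values for the list as a whole, 67 stayed within the limits set for a change, as did 145 of 160 peak counts per gene. These limits were wide, as promoter shares from 33.3% to 57.9% of linked peaks stayed within them. The 9aa-Ins counts add little, since they were 0 in every setting at the 9 genes other than Fli1. At a q-value of 1e-10 the linked GATA2 peaks fell to 13 and the linked 9aa-Ins peaks to 0, so that 0 genes had a 9aa-Ins peak and 0% of GATA2 peaks were shared, because the 11-read site of Fli1 no longer passed. Genes with a GATA2 peak then fell from 9 to 7, as Ets2 and Elk3 had 0. Spi1 kept 1 of 4 peaks, Elf1 2 of 4 and Elf2 1 of 3. The peaks kept for Spi1 and Elf1 lay at promoters of neighbouring genes. The median pileup rose from 12 to 19 reads, since this threshold removes the lowest peaks. WGATAR was in 12.5% of linked peaks within 50 bp of the summit, and GATA without its flanking letters was in 50% within 100 bp, both by construction of the search. With the 100 kb limit alone, Erg kept 0 peaks and Etv6 1, since their peaks lie deeper in the gene. By nearest gene start, Elf1 kept 0 peaks, Spi1 kept 2 and Ets2 gained 1. Elf1 kept 2 of 4 peaks at limits of 50 kb and 10 kb, and Spi1 2 of 4 at 10 kb. Starts of any transcript, by which Elk3 had 2 peaks in place of 1, and promoters from the basic GENCODE set (41.7% of linked peaks), were added after the data were seen. Peaks of 9 to 12 reads lie near the calling limit, where a site can be missed or found by counting error.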

Other observations

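Some GATA2 peaks lay just beyond the 100 kb limit of the 10 genes and may interest a reader of these loci. A peak of 12 reads with WGATAR at 95827333 to 95827559 of chromosome 16 lay 125 kb from the Ets2 start, which was the nearest protein-coding start. A peak of 13 reads with WGATAR, at 91182990 to 91183338 of chromosome 2, lay just past the limit of the first Spi1 start, nearest to Madd. Peaks of 11 and 15 reads without WGATAR lay 116 kb from the Elf2 start and 120 kb from the Elk3 start, nearest to Noct and Cdk17. The nearest 9aa-Ins peaks of the 9 genes other than Fli1 were at distances from 142 kb for Elk3, at Lta4h, to 11378 kb for Elf4.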
